A study of Mus musculus with 21 samples.

Results

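The slit diaphragm genes described here were 10 genes chosen by name for the proteins they encode at the podocyte cell junction (*Nphs1*, *Fat1*, *Ptpro*, *Trpc6*, *Cd2ap*, *Nck1*, *Nck2*, *Magi2*, *Tjp1* and *Plce1*). All 10 were found by their gene number among the 27179 genes of the count tables. All 10 passed the filter on low counts that left 16377 genes for testing. These genes and the pathway and marker lists below were chosen with earlier results of these data known. Their counts beside the shares of all genes describe the lists, and no list was tested as a set.

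Podocytes cover the outside of the glomerular capillaries, and the gaps between their interlocking foot processes are bridged by the slit diaphragm, a modified junction that retains plasma proteins. Nephrin molecules from opposite foot processes meet in the gap. Their tails recruit CD2AP and, where phosphorylated, the Nck proteins. These adaptors couple the junction to actin, while PDZ scaffolds hold the complex at the membrane. Loss of several of these proteins causes inherited nephrotic syndrome.

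Every library was made from messenger RNA of a podocyte fraction, which was obtained by binding cells of the enzyme-treated kidney cortex to magnetic beads through nephrin antibodies. All mice were male, wildtype for genotype and of the C57BL/6J strain. The young group held 6 libraries of mice aged 4 months without treatment. The middle-aged/saline group held 7 libraries and the middle-aged/MCC950 group 8 libraries of mice aged 19.5 months, which had received saline or 10 mg/kg of MCC950, an inhibitor of the NLRP3 inflammasome, as 2 injections a week for 6 weeks from 18 months of age. Young mice received no injections, so that age and injection cannot be told apart in the comparisons with young mice. The study's methods take control mice of 4 months from a tissue archive without saying whether these libraries are meant, and the labels name no batch.

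The young libraries held 27375870 to 36827823 counts, the saline libraries 45772937 to 84876399 and the MCC950 libraries 35440472 to 58247271, and the ranges of the young and saline libraries did not overlap. Mitochondrially encoded genes took 69.3% ± 9.82 (SD, n = 6) of the counts in young, 69.6% ± 5.32 (n = 7) in saline and 56.4% ± 4.46 (n = 8) in MCC950 libraries. All 14 podocyte markers outside the slit diaphragm list were detected in each group. Their summed level was 825 to 1720 counts per 1000000 counted reads (CPM, scaled with TMM factors) in young, 368 to 599 in saline and 435 to 689 in MCC950 libraries. The 10 proximal tubule markers summed to 1942 to 7556 CPM in young, 2068 to 5011 in saline and 3354 to 9208 in MCC950 libraries, so that the fractions also held RNA of tubule cells.

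The promoters of 4 of the genes are shown because these genes mark the ends of the range of change with age: *Nphs1*, *Magi2* and *Plce1* had the largest falls and *Cd2ap* the smallest fall that passed the test. Each window runs from 250 bases before to 50 bases after a RefSeq transcription start on GRCm38.p6 and is written 5′ to 3′ on the strand of the gene, with matches to the binding letters of WT1 and the related EGR zinc fingers in capitals (GNGTGGGNG, searched on both strands). The windows lie at chr7:30459808-30460107 (plus strand) for *Nphs1*, chr5:19226796-19227095 (plus) for *Magi2*, chr19:38523947-38524246 (plus) for *Plce1* and chr17:42876375-42876674 (minus) for *Cd2ap*.
Nphs1 promoter: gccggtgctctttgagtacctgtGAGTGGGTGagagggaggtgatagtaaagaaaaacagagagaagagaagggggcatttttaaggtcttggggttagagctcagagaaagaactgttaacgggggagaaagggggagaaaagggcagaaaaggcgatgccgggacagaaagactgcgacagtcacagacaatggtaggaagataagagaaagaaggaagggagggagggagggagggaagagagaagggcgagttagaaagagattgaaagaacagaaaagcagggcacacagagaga
Magi2 promoter: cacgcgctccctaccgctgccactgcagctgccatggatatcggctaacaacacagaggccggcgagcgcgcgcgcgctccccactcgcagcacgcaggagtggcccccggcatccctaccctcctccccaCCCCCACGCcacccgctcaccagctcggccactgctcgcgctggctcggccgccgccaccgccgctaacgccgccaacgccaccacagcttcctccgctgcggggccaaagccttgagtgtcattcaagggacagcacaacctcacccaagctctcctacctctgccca
Plce1 promoter: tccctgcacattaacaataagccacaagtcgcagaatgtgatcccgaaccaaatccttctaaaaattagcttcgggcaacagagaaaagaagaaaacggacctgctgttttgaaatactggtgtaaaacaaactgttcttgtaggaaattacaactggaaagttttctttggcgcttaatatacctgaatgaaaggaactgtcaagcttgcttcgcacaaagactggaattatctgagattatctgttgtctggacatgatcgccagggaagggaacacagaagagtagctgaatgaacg
Cd2ap promoter: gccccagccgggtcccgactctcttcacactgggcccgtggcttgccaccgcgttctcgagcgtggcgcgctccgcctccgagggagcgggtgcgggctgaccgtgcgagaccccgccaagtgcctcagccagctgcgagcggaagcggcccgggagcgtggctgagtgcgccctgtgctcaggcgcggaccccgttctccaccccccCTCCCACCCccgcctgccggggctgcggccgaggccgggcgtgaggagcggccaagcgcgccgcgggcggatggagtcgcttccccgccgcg

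The match begins at position -227 from the transcription start in *Nphs1*, at -119 in *Magi2* and at -42 in *Cd2ap*. In *Magi2* and *Cd2ap* it lies on the opposite strand, and the *Plce1* window held no match. Of the 12 windows listed for the 10 genes, 5 held the letters (*Nphs1*, *Magi2*, *Tjp1*, *Fat1* and *Cd2ap*), compared with 14.3% of all 32851 promoter windows. The forkhead letters TGTTTNC were in 3 of 12 windows against 20.5% of all, the LMX1B letters TAATTA in 1 of 12 against 5.29%, and the MAF letters TGCTGAC in 0 of 12 against 4.67%. These windows differ in base composition, with 49.7% G and C in *Nphs1*, 69.3% in *Magi2*, 41.0% in *Plce1* and 77% in *Cd2ap*, where the median of all windows was 52.7%. A match describes the letters alone and was not tested as a binding site, and in each of the 4 genes RefSeq also places a transcript start further upstream.

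Levels of different genes were compared per kilobase of exon (CPM per kb), with exon lengths from GENCODE. For *Cd2ap* that length was 5399 bases, and its GENCODE gene starts at base 42792951, where the RefSeq gene starts at 42748887. The *Nphs1* gene ends at base 30488623 in RefSeq and at 30487223 in GENCODE, and the *Ptpro* gene at 137464634 and 137463233. The places of the genes in the order and in the shares below therefore depend on the lengths used, and other lengths were not tested. In young libraries the order by median was *Cd2ap* with 11.5 CPM per kb, *Nphs1* with 8.59, *Ptpro* with 8.57, *Tjp1* with 7.54, *Nck2* with 4.09, *Fat1* with 3.20, *Nck1* with 2.16, *Magi2* with 1.44, *Plce1* with 1.03 and *Trpc6* with 0.0782. *Nphs1* ranged from 4.91 to 13.0 CPM per kb, *Ptpro* from 4.38 to 10.2 and *Tjp1* from 5.20 to 9.77, so that these 3 neighbours did not differ beyond their spread. *Cd2ap* (11.1 to 12.1) overlapped *Nphs1* alone among them, and *Trpc6*, a calcium channel, lay below every other gene in each young library. In the saline libraries *Nphs1* moved from second to rank 7 with a median of 1.35 CPM per kb, below *Nck1* (1.87) and *Fat1* (1.41), and in the MCC950 libraries it had rank 5 with 2.43.

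*Nphs1* made up a median of 17.7% of the summed per-kilobase level of the 10 genes in young libraries (13.4% to 22.4%), 5.13% in saline (1.41% to 6.45%) and 9.26% in MCC950 libraries (6.32% to 15.4%). The saline range did not overlap the young one, while the MCC950 range overlapped both. The share of *Cd2ap* moved the other way, from 23.8% (20.5% to 30.9%) in young to 33.7% (32.7% to 37.4%) in saline libraries. In MCC950 libraries it was 29.1% (26.4% to 33.3%). The *Cd2ap* level nevertheless fell, from a median of 11.5 CPM per kb in young to 8.97 in saline and 8.10 in MCC950 libraries. The summed level itself was 36.7 to 58.0 CPM per kb in young, 22.9 to 30.5 in saline and 24.5 to 32.4 in MCC950 libraries, with no overlap between young libraries and either middle-aged group.

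**Figure D1:**
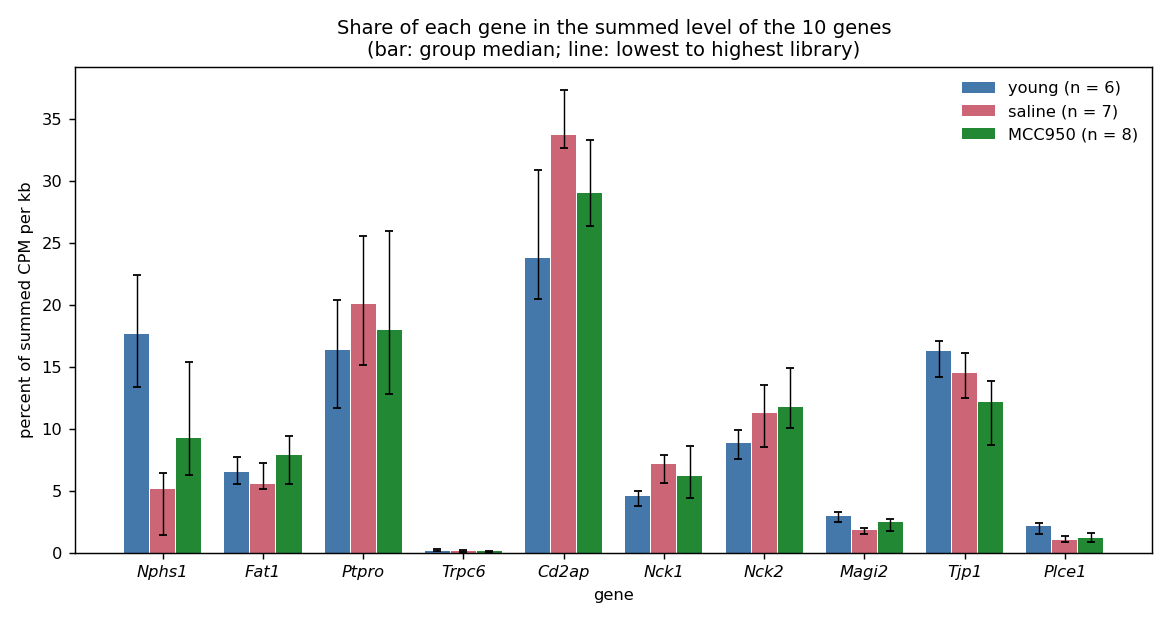
Bars give the median share (percent, vertical axis) of each gene (horizontal axis) in the summed CPM per kilobase of the 10 genes in the young, saline and MCC950 groups, and lines run from the lowest to the highest library. With GENCODE exon lengths *Nphs1* took a median of 17.7% in young, 5.13% in saline and 9.26% in MCC950 libraries. With these lengths *Cd2ap* had the highest median share in each group.

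The comparison of saline-treated middle-aged mice with young mice asked how these transcripts differ with age in the nephrin-selected fraction. Of the 10 genes 9 fell, by edgeR's quasi-likelihood test with Benjamini-Hochberg adjustment over all 16377 genes, and the remaining gene, *Nck1*, did not pass. Of all genes tested, 12.4% were called lower and 12.2% higher in this comparison, while 0 of the 10 were called higher. The median log2 fold change was -1.01 over the 10 genes and 0.02 over all genes. The falls covered a wide range, from 6.85-fold for *Nphs1* to 1.27-fold for *Cd2ap*. In 6 of the 10 genes (*Nphs1*, *Fat1*, *Cd2ap*, *Magi2*, *Tjp1* and *Plce1*) every saline library lay below every young library, against 4.86% of all genes, and none of the 10 lay wholly above, against 4.51%. In such bulk samples fewer podocytes in the fraction and less RNA per podocyte cannot be told apart.

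**Figure D2:**
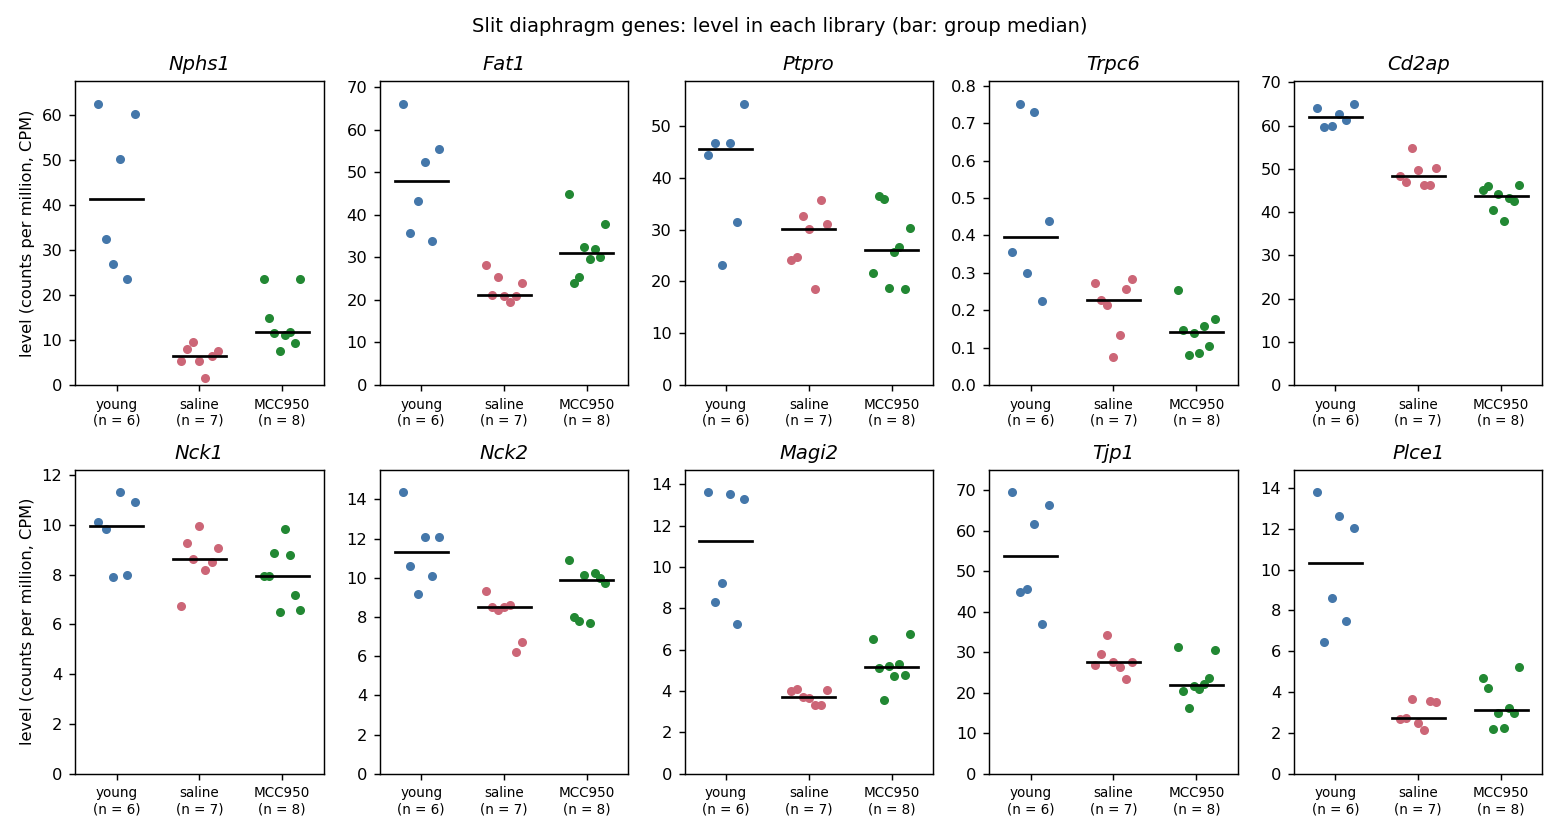
Each point is the level of a gene in 1 library in CPM (vertical axis, from 0, with a scale of its own in each panel) in the young (n = 6), saline (n = 7) and MCC950 (n = 8) groups (horizontal axis), and bars are group medians. Points are spread sideways so that they can be seen. *Nphs1* lay between 23.6 and 62.6 CPM in young, 1.56 and 9.48 in saline and 7.46 and 23.6 in MCC950 libraries, while *Cd2ap* stayed within 59.7 to 65.1, 46.2 to 54.8 and 37.9 to 46.2 CPM.

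Among the proteins of the membrane, *Nphs1* (chr7:30458207-30488623, plus strand, with 31 exonic blocks), which encodes nephrin, the adhesion molecule whose antibodies selected these cells, had levels of 23.6, 41.4 and 62.6 CPM as the lowest, median and highest of the young libraries and of 1.56, 6.48 and 9.48 CPM in the saline libraries. The groups were far apart, and saline replicate 5 was the lowest of all 21 libraries. The log2 fold change was -2.78 ± 0.35 (SE, adjusted p = 2.23e-05), and it stayed between -2.90 and -2.60 whichever library was left out. *Nphs1* shares 597 exonic bases with the antisense gene *Nphs1os*, which had at most 4 counts in any library, and whether the counting used strand is not given in the sources used here.

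*Fat1* (chr8:44933100-45052257, plus strand) encodes a very large protocadherin of the junction, and its levels were 33.9, 47.9 and 66.2 CPM (lowest, median, highest) in young and 19.6, 21.1 and 28.3 CPM in saline libraries. Its groups did not overlap, and the fold change was -1.07 ± 0.15 on the log2 scale (adjusted p = 7.05e-05). *Ptpro* (chr6:137252299-137464634, plus strand), a receptor tyrosine phosphatase of the apical podocyte membrane, had 23.2, 45.5 and 54.3 CPM in young and 18.4, 30.2 and 35.7 CPM in saline libraries. Only 1 of the 7 saline libraries lay below the lowest young library, and the log2 fold change of -0.55 ± 0.20 passed the threshold narrowly (adjusted p = 0.0461). That call was lost, with adjusted p from 0.0507 to 0.125, when young replicate 2, 3, 4 or 6, saline replicate 1, 3, 4, 5, 6 or 7 or MCC950 replicate 2, 4 or 8 was left out.

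*Trpc6* (chr9:8543867-8680752, plus strand), the calcium channel of the complex, was at the edge of detection with 4 to 22 counts in the young, 4 to 16 in the saline and 4 to 12 in the MCC950 libraries. Its levels were 0.225, 0.396 and 0.753 CPM in young and 0.0758, 0.228 and 0.283 CPM in saline libraries. Most saline libraries overlapped the lower young ones, with 3 of 7 below all of them. The log2 fold change was -1.17 ± 0.34 (adjusted p = 0.0153), and without young replicate 2, which held the most counts, it was -0.99 with adjusted p = 0.0508.

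The cytoplasmic adaptors had the smallest fold changes of the list, although that of *Nck2* lay within the standard error of that of *Ptpro* (-0.55 ± 0.20). The part of cells other than podocytes in the adaptor levels was not tested. *Cd2ap* (chr17:42748887-42876707, minus strand), which links nephrin to actin and to endocytosis, had 59.7, 61.9 and 65.1 CPM in young and 46.2, 48.4 and 54.8 CPM in saline libraries. The groups did not overlap although the shift was small, because libraries of a group lay close together, with a coefficient of variation of 3.51% in young libraries compared with 40.3% for *Nphs1*. Its log2 fold change was -0.34 ± 0.06 (adjusted p = 0.000249). *Nck1* and *Nck2* encode paralogous adaptors of SH2 and SH3 domains that bind the phosphorylated nephrin tail. *Nck2* (chr1:43445483-43570518, plus strand) had 9.18, 11.3 and 14.4 CPM in young and 6.20, 8.50 and 9.34 CPM in saline libraries, with 6 of 7 saline libraries below the young range and a log2 fold change of -0.51 ± 0.12 (adjusted p = 0.00343). *Nck1* (chr9:100494302-100546134, minus strand) had 7.89, 9.96 and 11.3 CPM in young and 6.73, 8.62 and 9.96 CPM in saline libraries. The *Nck1* ranges largely overlapped, with a log2 fold change of -0.17 ± 0.11 (adjusted p = 0.296). Of the 50-base pieces of its transcripts, *Nck2* shares 6.77% with other annotated genes, the most of the 10 genes, and *Nck1* shares 1.57%.

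The scaffolds and the phospholipase had larger fold changes than the adaptors. *Magi2* (chr5:19219387-20704792, plus strand), a membrane-associated guanylate kinase with PDZ domains that binds nephrin, had 7.24, 11.3 and 13.6 CPM in young and 3.31, 3.71 and 4.10 CPM in saline libraries. The saline libraries were tightly grouped below the whole young range, with a log2 fold change of -1.54 ± 0.15 (adjusted p = 5.42e-06). *Tjp1* (chr7:65296165-65527850, minus strand) encodes the tight junction scaffold ZO-1 and had 36.9, 53.6 and 69.5 CPM in young and 23.4, 27.5 and 34.2 CPM in saline libraries. Here too the ranges did not meet, and the log2 fold change was -0.96 ± 0.15 (adjusted p = 0.000165). *Plce1* (chr19:38481034-38785105, plus strand), a phospholipase C that is mutated in inherited nephrotic syndrome, had 6.44, 10.3 and 13.8 CPM in young and 2.17, 2.73 and 3.64 CPM in saline libraries. Every saline library was below every young library, and the log2 fold change of -1.78 ± 0.22 (adjusted p = 1.7e-05) was second to that of *Nphs1*.

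Around the complex, 35 genes of nephrin signalling, junction polarity, actin control and calcineurin signalling were examined, of which 33 passed the filter. With age 13 of the 33 were called lower and 2 higher, where 12.4% of all genes were called lower and 12.2% higher, and their median log2 fold change was -0.13. *Kirrel*, which encodes the nephrin partner NEPH1, fell by 2.02 on the log2 scale (SE 0.29, adjusted p = 6.27e-05), from a median of 13.3 CPM in young to 2.76 CPM in saline libraries. Next by size among the called genes were *Yes1*, a kinase of the Src family (-0.63 ± 0.16, adjusted p = 0.00564), *Wasl*, an activator of actin branching (-0.56 ± 0.10, adjusted p = 0.000615), and *Cfl1*, the actin-severing protein cofilin, which rose (0.50 ± 0.11, adjusted p = 0.00173). In each of these 4 genes the saline and young libraries did not overlap.

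Markers of podocytes and of other glomerular cells moved with the slit diaphragm genes, where 12.4% of all genes were called lower and 12.2% higher. Of the 14 podocyte markers outside the list 13 fell and 0 rose (median log2 fold change -1.97), of 8 endothelial markers 7 fell (-1.04) and of 7 mesangial and smooth muscle markers 6 fell (-1.14), while 3 of 9 macrophage markers (0.90), 3 of 6 T cell markers (1.16) and 3 of 6 B and plasma cell markers (1.00) rose. Of 5 collecting duct markers 4 fell (-0.68) and of 6 markers of the loop of Henle and distal tubule 1 fell (-0.11), while none of 10 proximal tubule (-0.27) and 3 red blood cell markers (-0.11) passed. The median fall of the podocyte markers was larger than the fall of 9 of the 10 slit diaphragm genes, *Nphs1* being the exception. With the podocyte marker score, the mean log2 CPM of the 14 markers, as a covariate in the fit, 0 of the 10 genes were called by edgeR and 6 of all genes, and the log2 fold change of *Nphs1* was -0.36 (adjusted p = 0.640). The score was 4.11 to 5.57 in young and 2.70 to 3.71 in saline libraries without overlap, so that score and age cannot be told apart in that fit. With all libraries thinned so that their totals outside the mitochondrial genes were about equal the fold changes were -2.75 for *Nphs1*, -1.78 for *Plce1* and -1.55 for *Magi2*, and 7 of the 10 genes were called, since *Ptpro* was not and *Trpc6* failed the filter.

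**Figure D3:**
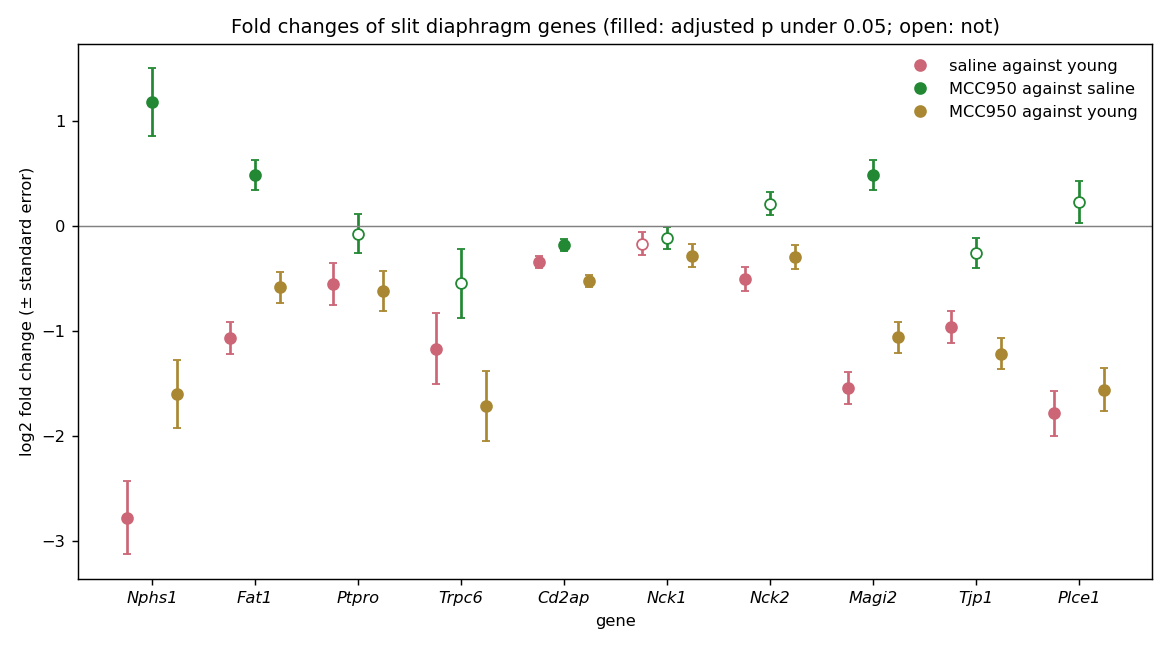
Points are log2 fold changes (vertical axis) of the 10 genes (horizontal axis) in the 3 comparisons, with bars of 1 standard error, filled where the adjusted p was under 0.05. The comparison of saline with young runs from -2.78 for *Nphs1* to -0.17 for *Nck1*, and that of MCC950 with saline from -0.55 for *Trpc6* to 1.18 for *Nphs1*.

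The comparison of MCC950 with saline asked whether inhibition of NLRP3 in middle-aged mice altered these transcripts. Of the 10 genes 3 rose (*Nphs1*, *Magi2* and *Fat1*) and 1 fell (*Cd2ap*), while 6 did not pass the test, and the median log2 fold change was 0.07 over the 10 genes and 0.0028 over all genes. Of all genes 11.9% were called higher and 4.86% lower, and the split of the calls moved with the scaling, from 1957 higher and 796 lower with TMM to 1283 higher and 1271 lower with upper-quartile factors, under which the same 4 slit diaphragm genes passed in the same directions. None of the 10 genes had all MCC950 libraries above all saline libraries, against 1.15% of all genes, and *Cd2ap* alone had all of them below, against 0.586%. The count of 4 genes fell to 2 without saline replicate 2, saline replicate 7 or MCC950 replicate 3, as set out for each gene.

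*Nphs1* levels in the MCC950 libraries were 7.46, 11.7 and 23.6 CPM as the lowest, median and highest value, next to 1.56, 6.48 and 9.48 CPM in saline libraries. In 6 of the 8 treated libraries they exceeded the highest saline value, and replicates 2 and 3 lay just under the lowest young library. The log2 fold change was 1.18 ± 0.32, a 2.27-fold rise (adjusted p = 0.0172), and it passed the threshold whichever library was left out, with values from 1.01 to 1.28.

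*Magi2* had 3.57, 5.17 and 6.75 CPM in MCC950 libraries against 3.31, 3.71 and 4.10 CPM in saline libraries, and 7 of 8 treated libraries were above the saline range. The log2 fold change was 0.48 ± 0.14 (adjusted p = 0.0258). It no longer passed without saline replicate 2, 4 or 7 or MCC950 replicate 3 (adjusted p from 0.0505 to 0.0577) or with libraries thinned to about equal non-mitochondrial totals (adjusted p = 0.0680). *Fat1* had 23.9, 31.0 and 45.0 CPM in MCC950 and 19.6, 21.1 and 28.3 CPM in saline libraries, with 6 of 8 treated libraries above the saline range. Its log2 fold change of 0.48 ± 0.14 (adjusted p = 0.0268) no longer passed without saline replicate 2, 6 or 7 or MCC950 replicate 3 (adjusted p from 0.0556 to 0.0600).

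*Cd2ap* was the gene of the list that fell under MCC950, with 37.9, 43.7 and 46.2 CPM in treated and 46.2, 48.4 and 54.8 CPM in saline libraries. The highest treated library lay just under the lowest saline library. The log2 fold change was small, -0.18 ± 0.05 (adjusted p = 0.0273), and missed the threshold without MCC950 replicate 8 (adjusted p = 0.0520) and with the thinned counts (adjusted p = 0.0657).

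For the other 6 genes the treated and saline libraries overlapped and the test was not passed. *Tjp1* had 16.2, 21.9 and 31.3 CPM in MCC950 libraries, with 5 of 8 below the saline range, and a log2 fold change of -0.26 ± 0.14 (adjusted p = 0.224). *Nck2* had 7.70, 9.88 and 10.9 CPM, with 5 of 8 above the saline range (0.21 ± 0.11, adjusted p = 0.182). *Plce1*, which had fallen steeply with age, stood at 2.18, 3.11 and 5.21 CPM (0.23 ± 0.20, adjusted p = 0.470). *Ptpro* had 18.5, 26.2 and 36.4 CPM, close to the saline values (-0.07 ± 0.18, adjusted p = 0.824). *Nck1* had 6.50, 7.94 and 9.84 CPM (-0.11 ± 0.10, adjusted p = 0.479) and *Trpc6* 0.0809, 0.142 and 0.254 CPM (-0.55 ± 0.33, adjusted p = 0.263). The standard errors were widest for *Trpc6* and narrowest for *Cd2ap*, and a difference as small as that of *Cd2ap* lay within 2 standard errors for each of the other 9 genes.

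In the surrounding pathway 2 of the 33 genes tested rose and 0 fell, where 11.9% of all genes were called higher and 4.86% lower. They were *Rcan1*, a feedback inhibitor of calcineurin (0.94 ± 0.18, adjusted p = 0.00343), from a median of 61.7 CPM in saline to 122 CPM in MCC950 libraries, and *Actn4*, the actin crosslinker mutated in familial focal segmental glomerulosclerosis (0.28 ± 0.08, adjusted p = 0.0162), which was higher in all 8 treated libraries than in any saline library. *Kirrel* had a log2 fold change of 0.54 ± 0.27 (adjusted p = 0.175).

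Other features of the libraries also differed, in a comparison where 11.9% of all genes were called higher and 4.86% lower. Of the 14 podocyte markers 3 rose and 0 fell (median log2 fold change 0.44), of 10 proximal tubule markers 6 rose (0.97), of 6 markers of the loop of Henle and distal tubule 2 fell (-0.095), of 8 endothelial markers 2 fell (-0.20), and no marker of the other 6 lists passed. The mitochondrial share was 56.4% in MCC950 against 69.6% in saline libraries by exact permutation (two-sided p = 0.000622, adjusted over 24 tests 0.00466). With the podocyte marker score as a covariate *Nphs1* was 0.59 and *Cd2ap* -0.23 on the log2 scale, both still called, *Tjp1* became called at -0.52 (adjusted p = 0.00135), and *Fat1* (0.25, adjusted p = 0.118) and *Magi2* (0.23, adjusted p = 0.106) no longer passed. With the proximal tubule score instead, *Nphs1* was 1.79 and *Ptpro* 0.54 (adjusted p = 0.0336), and *Fat1* (0.46, adjusted p = 0.175), *Magi2* (0.50, adjusted p = 0.145) and *Cd2ap* (-0.14, adjusted p = 0.234) no longer passed, although the fold changes of *Fat1* and *Magi2* were close to those without the covariate. Without mitochondrial genes the fold changes were 1.18 for *Nphs1*, 0.48 for *Fat1*, 0.48 for *Magi2* and -0.18 for *Cd2ap*. The part of the podocyte and tubule content in these results was not tested beyond these fits.

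MCC950 libraries were also set against young libraries, with which the other comparisons share their samples. All 10 genes were called lower, where 16.5% of all genes were called lower and 21.8% higher, and their median log2 fold change was -0.84. The largest differences were those of *Trpc6* (-1.71 ± 0.34), *Nphs1* (-1.60 ± 0.32) and *Plce1* (-1.56 ± 0.21), which lay within their standard errors of each other. That of *Trpc6* rested on 4 to 22 counts in young and 4 to 12 in MCC950 libraries, and its groups overlapped. Next were *Tjp1* (-1.21 ± 0.15), *Magi2* (-1.06 ± 0.15), *Ptpro* (-0.62 ± 0.19), *Fat1* (-0.58 ± 0.15) and *Cd2ap* (-0.52 ± 0.06). *Nphs1*, *Cd2ap*, *Magi2*, *Tjp1* and *Plce1*, 5 of the 10 genes, had every MCC950 library below every young library, against 4.66% of all genes, and none of the 10 lay wholly above, against 3.28%. *Nck1* (-0.28 ± 0.11, adjusted p = 0.0460) and *Nck2* (-0.29 ± 0.11, adjusted p = 0.0455) lay just inside the threshold. The call of *Nck1* was lost without young replicate 2, 3, 4 or 6, saline replicate 2, 3, 4, 5 or 6 or MCC950 replicate 1, 2, 3, 5 or 6 (adjusted p from 0.0507 to 0.123), and that of *Nck2* without young replicate 3 or MCC950 replicate 6, 7 or 8 (0.0747 to 0.0818).

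Ratios of counts between 2 genes of the same library do not depend on how libraries are scaled, and 3 such ratios were compared in 6 exact two-sided permutation tests. Such a ratio can still change with the mix of cells in the fraction, and that part was not tested. The *Magi2* to *Tjp1* ratio of the PDZ scaffolds had 0.186, 0.198 and 0.219 as its lowest, median and highest value in young, 0.109, 0.139 and 0.150 in saline and 0.200, 0.223 and 0.251 in MCC950 libraries. It was lower in all saline libraries than in any young library, and higher in all 8 MCC950 libraries than in any saline library. The mean log2 ratio differed by -0.57 between saline and young (exact permutation p = 0.00117, adjusted p = 0.00175) and by 0.74 between MCC950 and saline (exact permutation p = 0.000311, adjusted p = 0.00175), in both cases the smallest p that the numbers of libraries allow.

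The *Nphs1* to *Cd2ap* ratio of the receptor and its adaptor was 0.386, 0.673 and 0.977 in young, 0.0337, 0.140 and 0.173 in saline and 0.169, 0.290 and 0.520 in MCC950 libraries. Saline and young libraries did not overlap (difference in mean log2 ratio -2.49, exact permutation p = 0.00117, adjusted p = 0.00175), and 7 of 8 MCC950 libraries were above the saline range (1.42, exact permutation p = 0.000932, adjusted p = 0.00175). The *Nck2* to *Nck1* ratio of the paralogues was 1.07, 1.14 and 1.42 in young, 0.729, 0.920 and 1.39 in saline and 0.783, 1.27 and 1.56 in MCC950 libraries. It was lower in saline than in young libraries by 0.34 on the log2 scale, with 6 of 7 saline libraries below the young range (exact permutation p = 0.0385, adjusted p = 0.0462). With single libraries left out, only the permutation p without adjustment over the 6 tests was taken. For this difference it was above 0.05 without saline replicate 2, 3, 6 or 7 or young replicate 1, 3 or 5 (0.0505 to 0.0833). Between MCC950 and saline the difference of 0.33 did not pass (exact permutation p = 0.0870). The unadjusted permutation p was under 0.05 without saline replicate 1 (p = 0.0280) or MCC950 replicate 8 (p = 0.0344).

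**Figure D4:**
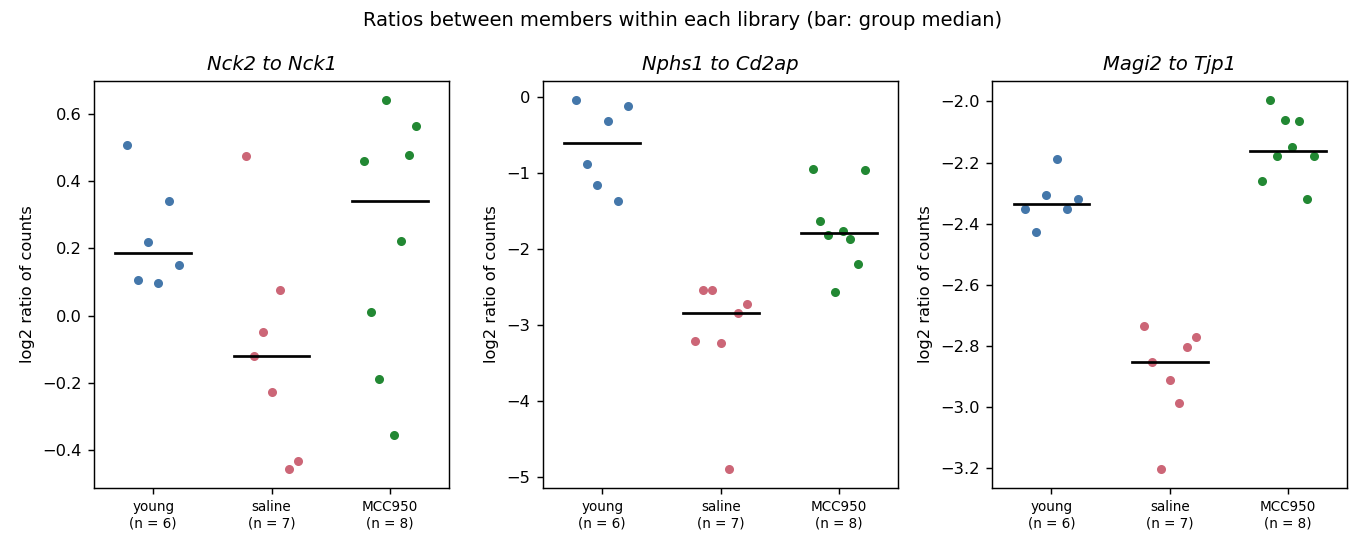
Each point is the log2 ratio of the counts of 2 genes in 1 library (vertical axis, with a scale of its own in each panel) in the young (n = 6), saline (n = 7) and MCC950 (n = 8) groups, and bars are group medians. For *Magi2* to *Tjp1* the saline libraries lay below all young and all MCC950 libraries, and for *Nphs1* to *Cd2ap* saline replicate 5 was lowest at -4.89.

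The genes differed in how closely they followed *Nphs1* and the podocyte marker score from library to library. Across the 21 libraries the log2 level of *Nphs1* had its highest Pearson correlations outside the list with podocyte genes and others, among them *Wt1*, the podocyte transcription factor (r = 0.990, and 0.965 once group means were removed), *Srgap1* (0.983 and 0.935), *Ddn*, which encodes dendrin (0.983 and 0.946), *Myom2* (0.973 and 0.901), *Nxph3* (0.970 and 0.882), *Arhgap28* (0.970 and 0.915) and *Mmp23* (0.970 and 0.881). Within the list the values, in the order of the first, were 0.913 and 0.648 for *Magi2*, 0.885 and 0.744 for *Plce1*, 0.883 and 0.588 for *Fat1*, 0.723 and 0.639 for *Tjp1*, 0.671 and 0.173 for *Nck2*, 0.658 and 0.610 for *Ptpro*, 0.629 and 0.543 for *Cd2ap*, 0.615 and 0.488 for *Trpc6* and 0.390 and 0.303 for *Nck1*. Once group means were removed, *Plce1* was highest and *Nck2* lowest. These values share library and scaling among all genes and describe the 21 libraries only.

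With group means removed, the podocyte marker score correlated at r = 0.897 with *Nphs1*, 0.833 with *Tjp1*, 0.827 with *Magi2*, 0.771 with *Plce1*, 0.725 with *Fat1*, 0.566 with *Cd2ap*, 0.561 with *Trpc6*, 0.555 with *Ptpro*, 0.397 with *Nck2* and 0.389 with *Nck1* (n = 21 libraries). Of the 10 genes 5 had at least 1 value of larger size with the markers of other cells than with those of podocytes. The largest in size for each was -0.850 for *Ptpro* and -0.700 for *Nck1* with the proximal tubule score, -0.701 for *Cd2ap* with the T cell score, 0.669 for *Nck2* with the collecting duct score and 0.612 for *Trpc6* with the endothelial score. *Ptpro* also had 0.798 with the macrophage and myeloid score. *Ptpro* is also known in blood cells of the myeloid and B lineages, and the part of such cells in its level was not tested.

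**Figure D5:**
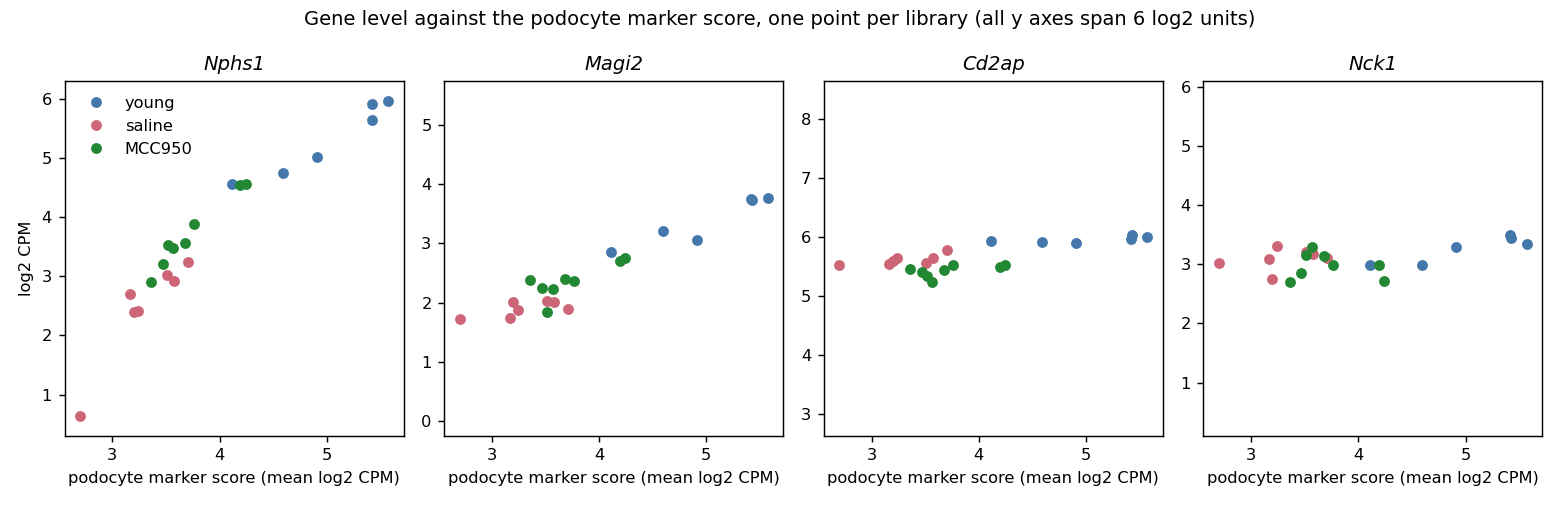
Each point is 1 of the 21 libraries, with the podocyte marker score (mean log2 CPM of 14 markers outside the list, horizontal axis) and the log2 CPM of a gene (vertical axis, the same span in each panel), coloured by group. *Nphs1* increased along the score through all groups (r = 0.897 within groups). The r within groups was 0.827 for *Magi2*, 0.566 for *Cd2ap* and 0.389 for *Nck1*, and slopes were not computed.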

How the data were processed

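Podocyte fractions of individual mice were sequenced, and samples were grouped by their labels. Reads were trimmed with Trim Galore, aligned with Bowtie2 to GRCm38 (mm10) and counted per gene with featureCounts, per the labels and the study's methods. Tool versions, annotation release and strand setting are not given in the sources used here. Bowtie2 does not split reads at splice junctions, which bears on levels compared between genes. The deposited values used here were raw counts for 27179 genes in each of 21 libraries, made by the authors without normalization. Their normalized table, which covers 20 of the libraries, was not used.

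Names came from RefSeq on GRCm38.p6 (25275 genes matched) and exon lengths from GENCODE M21. Rows of 10 members were taken by gene number. Differential expression used the quasi-likelihood F test of edgeR 4.0.16 (R 4.3.3), with TMM factors, filterByExpr and all 3 groups in one fit, at a Benjamini-Hochberg adjusted p under 0.05, and ratios by exact permutation tests in scipy 1.17.1 (Python 3.11.15, pandas 2.3.3, numpy 2.4.6). Standard errors were derived from the fold change and its F value. Marker scores used log2 CPM with a prior count of 2. P-values set the difference between groups against the spread between libraries of individual mice. No 2 libraries of a group were alike within sampling noise (lowest chi-square per degree of freedom 16.9).

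Alternatives were RLE and upper-quartile factors, DESeq2 1.42.0, other filters, no mitochondrial genes, thinning to about 5804891 non-mitochondrial counts, 2-group fits, a robust fit, marker covariates, a replicate block and leaving out each library. The workflow was tested on simulated data. Named were the 10 genes, up to 4 called pathway genes of largest change in each of the first 2 comparisons, *Kirrel*, and the 8 genes most correlated with *Nphs1*, of which 7 are reported here. The members and lists were chosen with earlier results of these data known. Depth limits *Trpc6*, with at most 22 counts in a library.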

Additional observations from a re-analysis of the deposited data

Results flagged for a closer look

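In 39 groups of values of the 10 genes and their ratios, the sample at either end was compared with the spread of its group, and 1 sample stood apart. In saline replicate 5 the log2 ratio of *Nphs1* to *Cd2ap* was -4.89, where the other saline libraries lay between -3.23 and -2.53. Chance sets a sample apart in about 1 of 20 such groups. The same library had the lowest *Nphs1* level of all libraries (1.56 CPM) and the lowest podocyte marker score (2.70), and the part of podocyte content in this value was not tested. Without one library at a time the ratio differed from young by -2.63 to -2.20.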

How the results depend on the processing

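Of 984 member values under alternative settings 901 kept direction and side of the threshold, 72 kept direction but no longer passed, 1 kept direction and newly passed, and 10 reversed, whatever their adjusted p. The cause was not tested in any case. With the podocyte marker score as a covariate 6 genes and 0 slit diaphragm genes were called with age, and *Ptpro* (0.33), *Trpc6* (0.29), *Nck1* (0.16) and *Tjp1* (0.068) turned positive. Under it 120 genes and 1 slit diaphragm gene, *Cd2ap*, were called between MCC950 and young, and *Nphs1* (0.23), *Fat1* (0.10) and *Ptpro* (0.055) turned positive, while *Plce1* was -0.12 between MCC950 and saline. With the proximal tubule score 664 genes and 2 slit diaphragm genes were called between MCC950 and saline, and *Ptpro* (0.54) and *Nck1* (0.15) turned positive. Thinning to about equal non-mitochondrial totals also left 2 slit diaphragm genes there. With 1 library left out, the genes called between MCC950 and saline ranged from 1523 (without saline replicate 4) to 3295 and were 1745 without saline replicate 3, the slit diaphragm genes from 2 to 4, and the *Nck2* to *Nck1* difference from -0.44 to -0.28 with age and from 0.27 to 0.43 with MCC950. MCC950 against young gave 2761 higher and 3241 lower genes with upper-quartile factors, against 3572 and 2705 with TMM.

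Replicate numbers were shared by the groups, which held different mice, and were not used as pairs in the main fits. Only same-numbered libraries were correlated, which cannot show whether the numbers pair libraries. The correlation was over 0.1 in 2 of 6 pairs of saline and young (-0.0614 to 0.347). It was so in 3 of 7 pairs of MCC950 and saline (-0.144 to 0.335) and 3 of 6 of MCC950 and young (-0.0128 to 0.401). With the replicate block 4275, 3282 and 6286 genes were called in these comparisons, against 4034, 2753 and 6277. Under it the *Nck2* to *Nck1* difference was -0.32 with age (exact sign-flip p = 0.125) and 0.42 with MCC950 (p = 0.0156), *Cd2ap* missed the threshold between MCC950 and saline (adjusted p = 0.0522) and *Nck2* between MCC950 and young (0.194).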

Other observations

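Further genes around the complex could not be tested because of low counts. *Kirrel2*, a paralogue of *Kirrel*, had medians of 0.153 CPM in young, 0.0549 in saline and 0.0723 in MCC950 libraries, and the calcium channel gene *Trpc5* had 0.134, 0.0571 and 0.0426 CPM. Between MCC950 and young libraries 10 of the 33 pathway genes tested were lower and 4 higher by edgeR's quasi-likelihood test, where 16.5% of all genes were lower and 21.8% higher. *Rcan1* was higher there (0.96 ± 0.19, adjusted p = 0.000733) after a difference of 0.02 ± 0.20 between saline and young (adjusted p = 0.961), while *Kirrel* was lower (-1.48 ± 0.27, adjusted p = 0.000317).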
